A study of Rattus norvegicus with 8 samples.

Results

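The Elavl and Celf genes encode RNA-binding proteins. The rows of the count table with the symbols Elavl1, Elavl2, Elavl3, Elavl4, Celf1, Celf2, Celf3, Celf4, Celf5 and Celf6 were taken, which gave 10 genes of the 28909 symbols in the table, 4 of them Elavl and 6 Celf genes. All 10 had more than 20 reads in at least 2 libraries and were therefore among the 14309 genes tested. Primary embryonic hippocampal neurons of Sprague-Dawley rats were grown on filter inserts. There, somata stay on the upper side and neuronal processes reach the lower side through the pores. RNA was taken separately from the somata and the processes of control cultures and of cultures that received picrotoxin (PTX). PTX is a GABA-A receptor antagonist that raises network activity, and it was given for 48 h from 18 to 20 days in vitro. Control cultures were mock-treated with the vehicle, ethanol. The 4 conditions, somata control, somata PTX, processes control and processes PTX, had 2 libraries each. The labels do not say whether replicates came from separate cultures, so p-values measure the spread between these libraries, which may be technical.

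Elavl proteins (also known as Hu proteins) bind AU- and U-rich stretches of mRNAs, mostly in the 3′ untranslated region, and are best known for stabilising their targets and aiding their translation. Elavl1 (HuR) is made in nearly all cells, whereas Elavl2 (HuB), Elavl3 (HuC) and Elavl4 (HuD) are the neuronal members that also act on splicing. Celf proteins bind GU-rich and UGU-containing elements. They regulate alternative splicing, often in opposition to Mbnl proteins, and Celf1 also recruits deadenylases that shorten the poly(A) tail of mRNAs. Celf1 and Celf2 are widely expressed, and Celf3, Celf4, Celf5 and Celf6 are mainly found in the nervous system.

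Library totals lay between 12290890 and 18455662 counts, but mitochondrial genes took 22.6% to 26.7% of them in somata and 68.5% to 72.5% in processes. The counts outside mitochondrial genes were 9517542 to 11227599 in somata and 4702054 to 5491237 in processes. The 10 genes were read 143 to 2073 times per library in somata and 32 to 842 times in processes, so that their levels were less precise in processes. Levels are given as CPM, the usual unit of library-scaled counts, after TMM scaling, which sets the libraries to a common level over most genes. They compare 1 gene between conditions and not different genes, since no transcript lengths were used. Markers of glia as well as of neurons were read. The summed level of 8 neuron markers was 1832 to 2108 CPM in the 4 somata libraries and 4081 to 5437 CPM in the 4 process libraries, while that of 6 astrocyte markers was 2894 to 4106 CPM and 11015 to 14433 CPM. Map2 and Gfap were the most abundant of their lists, with 812 to 985 CPM and 1057 to 1781 CPM in somata, and made up most of both sums in processes, with 3369 to 4693 CPM and 7698 to 11110 CPM. The 7 oligodendrocyte lineage markers summed to 229 to 415 CPM in somata and 419 to 597 CPM in processes. The 4 microglia markers found in the table summed to 0.574 to 1.51 CPM over all libraries, and 0 of them passed the filter. The 3 endothelium and fibroblast markers in the table summed to 10.3 to 29.8 CPM, with Cldn5 at 0 reads in all 8 libraries. In bulk RNA, fewer cells of a type and less RNA per cell cannot be told apart.

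**Figure D1:**
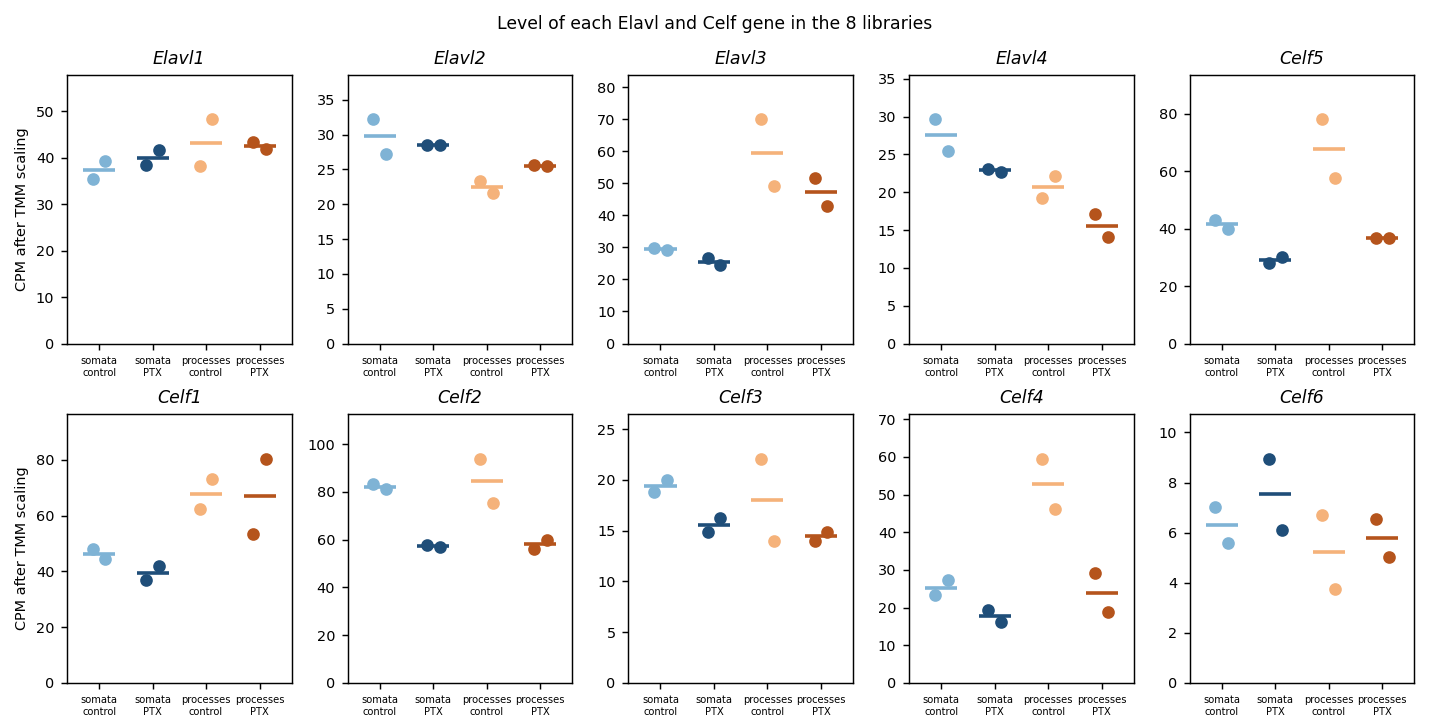
Level of each gene, in CPM after TMM scaling (vertical axis, starting at 0), in the 2 libraries (points) of each of the 4 conditions, with bars at the mean. Elavl3 lies between 24.5 and 29.8 CPM in somata and between 42.9 and 69.9 CPM in processes, and Celf4 is high in the processes control libraries alone, at 59.5 and 46.3 CPM.

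The first comparison asks how the transcripts were divided between processes and somata in unstimulated cultures. Relative to other genes, Elavl3, Celf4, Celf5 and Celf1 were higher in processes, whereas Elavl2 and Elavl4 were lower there. Genes were tested by the quasi-likelihood method of edgeR, with p-values adjusted after Benjamini and Hochberg over all 14309 genes. At an adjusted p below 0.05, 4 of the 10 genes were higher and 2 lower, while 25.8% of all tested genes were higher and 21.9% lower. The share of genes that passed the test was thus large in the whole transcriptome. Elavl3 and Celf4 also passed a log2 fold change of 1, which 11.6% of all genes did in this direction. Whether libraries overlapped is described for the 10 genes only. How often groups of 2 libraries were apart over all genes was not counted, so a lack of overlap is no test.

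The neuronal Elavl genes did not share 1 distribution. The level of Elavl3 was 29.8 and 29.1 CPM in the somata control libraries and 69.9 and 49.2 CPM in the processes control libraries. Both process libraries were above both somata libraries, and the difference was a log2 fold change of 1.02 (SE 0.16, adjusted p = 0.000453), or 2.02-fold. Elavl4, which is known to bind and stabilise mRNAs of growing neurons such as that of Gap43, was at 29.6 and 25.4 CPM in somata and at 19.2 and 22.1 CPM in processes. The groups did not overlap and the level was 25% lower in processes (log2 fold change -0.42, SE 0.14, adjusted p = 0.0314). Elavl2 was at 32.2 and 27.3 CPM in somata and at 23.3 and 21.6 CPM in processes, again without overlap (log2 fold change -0.40, SE 0.123, adjusted p = 0.02). The falls of Elavl2 and Elavl4 were small, and with DESeq2 their adjusted p was 0.0625 and 0.0763. Elavl1, the ubiquitous member, was at 35.4 and 39.3 CPM in somata and at 38.2 and 48.3 CPM in processes. These values overlapped, with a log2 fold change of 0.21 (95% interval -0.08 to 0.50, adjusted p = 0.205).

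Among the Celf genes, Celf4 had the highest ratio of processes to somata. Its product binds the 3′ untranslated region of many synaptic mRNAs, and loss of it is known to cause seizures in mice. Its level was 23.2 and 27.3 CPM in somata and 59.5 and 46.3 CPM in processes, without overlap, a log2 fold change of 1.06 (SE 0.192, adjusted p = 0.00111). Celf5, a close relative of Celf4 with less known function, was at 43.1 and 40.0 CPM in somata and at 78.1 and 57.5 CPM in processes. Both process values were above both somata values (log2 fold change 0.71, SE 0.139, adjusted p = 0.0019). Celf1, the decay factor, was at 48.2 and 44.5 CPM in somata and at 62.4 and 73.0 CPM on the process side (log2 fold change 0.55, SE 0.173, adjusted p = 0.0232). This call was lost with upper quartile scaling (adjusted p = 0.117). Celf2, a splicing regulator and binder of inflammatory mRNAs, was at 83.1 and 81.2 CPM in somata and at 93.9 and 75.3 CPM in processes (log2 fold change 0.04, 95% interval -0.22 to 0.30). For Celf3 and Celf6 the libraries overlapped as well, with log2 fold changes of -0.10 (95% interval -0.50 to 0.30) and -0.26 (95% interval -0.91 to 0.38).

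Leaving out 1 library of the compared conditions ended some of these calls, in fits where fewer of all genes passed too. Without somata control replicate 1, Elavl2 (adjusted p = 0.162), Elavl4 (0.193) and Celf1 (0.0585) were no longer called, and 3 genes remained. Without somata control replicate 2, Celf1 had an adjusted p of 0.112. Without processes control replicate 1, the adjusted p of Elavl4 was 0.17, and Celf3 passed the test as lower in processes (log2 fold change -0.47, adjusted p = 0.0463). Without processes control replicate 2, Celf1 (adjusted p = 0.142) and Elavl2 (0.0988) were lost. Elavl3, Celf4 and Celf5 kept their call without any 1 of the 8 libraries.

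The direction of a compartment difference holds relative to the bulk of genes. Without TMM factors, when counts were divided by library totals that are mostly mitochondrial in processes, the log2 fold change had a median of -1.86 over the tested genes and all 10 genes were lower in processes, whereas with TMM the median was -0.05. When counts were divided by the counts outside mitochondrial genes, the mean level in control processes was above that in control somata for 4 genes. These were Elavl3, Celf4, Celf5 and Celf1, against 6 genes with TMM, where Elavl1 and Celf2 were higher too. With this division the libraries of Elavl3 and Celf4 stayed apart between the compartments, whereas those of Celf5 and Celf1 overlapped. Celf5 was at 106.4 and 98.1 CPM in control somata and at 138.0 and 104.2 CPM in control processes. Celf1 was at 118.9 and 109.2 CPM in control somata and at 110.4 and 132.3 CPM in control processes. Neuron and astrocyte markers moved with the compartments too: of the 8 neuron markers 2 were higher and 6 lower in processes of control cultures, and of the 6 astrocyte markers 3 were higher and 1 lower. Their part in the difference of the 10 genes was not tested.

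**Figure D2:**
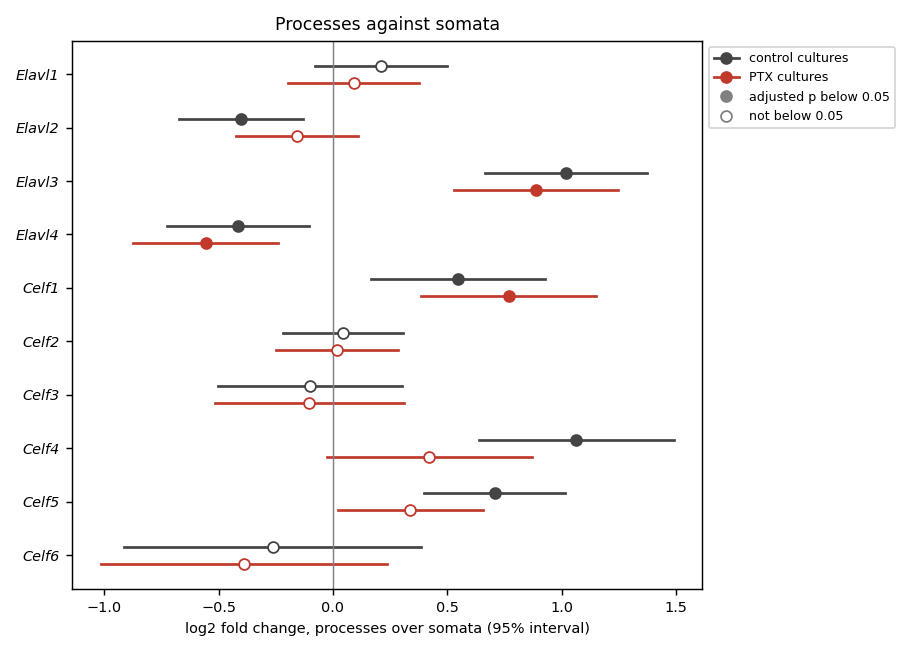
Log2 fold change of processes over somata (horizontal axis) with its 95% interval for the 10 genes, in control cultures (grey) and PTX cultures (red). Filled points have an adjusted p below 0.05, which 6 genes reached in control cultures and 3 in PTX cultures, and the interval of Celf4 lies above 0 in control cultures and spans 0 in PTX cultures.

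The same comparison was made in PTX cultures. Elavl3 and Celf1 were higher in processes and Elavl4 was lower, so that 2 genes of 10 were higher and 1 lower, beside 25.7% and 24% of all genes. Of the 10 genes, 0 had a log2 fold change above 1, against 11.4% of all genes. Elavl3 was at 26.5 and 24.5 CPM in somata and at 51.7 and 42.9 CPM in processes (log2 fold change 0.89, SE 0.162, adjusted p = 0.00109). Celf1 was at 36.8 and 42.0 CPM in somata and at 53.5 and 80.4 CPM in processes, where the replicates were far apart (log2 fold change 0.77, SE 0.173, adjusted p = 0.00386). Divided by the counts outside mitochondrial genes, its libraries overlapped, at 91.2 and 104.1 CPM in somata and 96.7 and 145.7 CPM in processes. Elavl4 was at 23.0 and 22.7 CPM in somata and at 17.1 and 14.1 CPM in processes (log2 fold change -0.56, SE 0.144, adjusted p = 0.00837), and without processes PTX replicate 2 its adjusted p was 0.0817.

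The compartment difference of Celf4 and Celf5 was smaller in PTX cultures than the one in control cultures and missed the threshold. Celf4 was at 19.3 and 16.3 CPM in PTX somata and at 29.1 and 18.9 CPM in PTX processes, which overlap (log2 fold change 0.42, adjusted p = 0.107). Celf5 was at 28.2 and 30.1 CPM in somata and at 36.9 and 36.8 CPM in processes, which do not overlap (log2 fold change 0.34, adjusted p = 0.0717). Divided by the counts outside mitochondrial genes, Celf5 was lower in PTX processes (66.6 and 66.7 CPM) than in PTX somata (69.8 and 74.6 CPM). Its direction in PTX cultures thus depends on the scaling. When same-numbered replicates were treated as pairs (replicate block), both passed, with an adjusted p of 0.0178 for Celf4 and 0.0141 for Celf5, in a fit that called 59.5% of all genes. Celf5 passed without processes control replicate 1 or 2 as well (adjusted p = 0.0223 and 0.0225). Celf4 also passed without processes PTX replicate 2 (log2 fold change 0.70, adjusted p = 0.02) and had a log2 fold change of 0.09 without processes PTX replicate 1, so its value rests on these 2 libraries. The change of the compartment difference with PTX is the same quantity as the difference between the PTX effects, which is given with the PTX comparisons. Elavl2 was at 28.5 and 28.5 CPM in PTX somata and at 25.6 and 25.4 CPM in PTX processes (log2 fold change -0.16, adjusted p = 0.298), and it passed as lower in processes with upper quartile scaling (-0.34, adjusted p = 0.0379).

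Because the scaling between compartments is uncertain, the genes were also set against each other within a library. The share of each gene in the reads of its family needs no scaling. It depends on transcript length, so that shares are not compared between genes. A share also moves when the reads of other members change, so that it does not describe 1 gene alone. This measure was added after the counts had been seen and was not tested. Elavl3 took 23.8% ± 0.402 (SD, n = 2) of the Elavl reads in somata of control cultures and 40.6% ± 8.17 (SD, n = 2) in processes. In PTX cultures its share was 21.8% ± 1.34 (SD, n = 2) and 36.0% ± 2.09 (SD, n = 2). All 4 process libraries, at 34.5% to 46.4%, were above all 4 somata libraries, at 20.9% to 24.0%. The share of Elavl4 was 22.1% ± 1.68 (SD, n = 2) in control somata and 14.2% ± 2.06 (SD, n = 2) in control processes. That of Elavl2 was 22.5% and 25.3% in the control somata libraries and 15.3% and 15.5% in the control process libraries. The ratio of Elavl3 to Elavl4 reads was 1.01 to 1.15 in the 4 somata libraries and 2.23 to 3.65 in the 4 process libraries, and that of Elavl3 to Elavl2 reads 0.860 to 1.07 and 1.69 to 3. The shares of Elavl1 overlapped between the compartments, with 27.9% to 35.5% in somata and 25.4% to 34.2% in processes.

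Within the Celf family, the shares of Celf4 set the processes of control cultures apart from all other conditions. Celf4 took 18.5% and 17.1% of the Celf reads there, against 9.70% to 12.5% in the 4 somata libraries and 14.8% and 8.76% in processes after PTX. The share of Celf5 was likewise highest in processes of control cultures, at 24.2% and 21.3%, and lay between 17.0% and 19.3% in the other 6 libraries. Celf2 took 34.0% to 37.2% of the Celf reads in somata and 27.7% to 29.1% in processes, in either treatment. Its level itself did not pass the test between compartments (log2 fold change 0.04 in control and 0.02 in PTX cultures). The shares of Celf1 in processes were spread from 19.4% to 37.3%. The exact binomial (Clopper-Pearson) 95% interval of the Celf4 share in processes PTX replicate 1, from 253 of 1708 Celf reads, was 13.2% to 16.6%, and it covers counting error only.

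**Figure D3:**
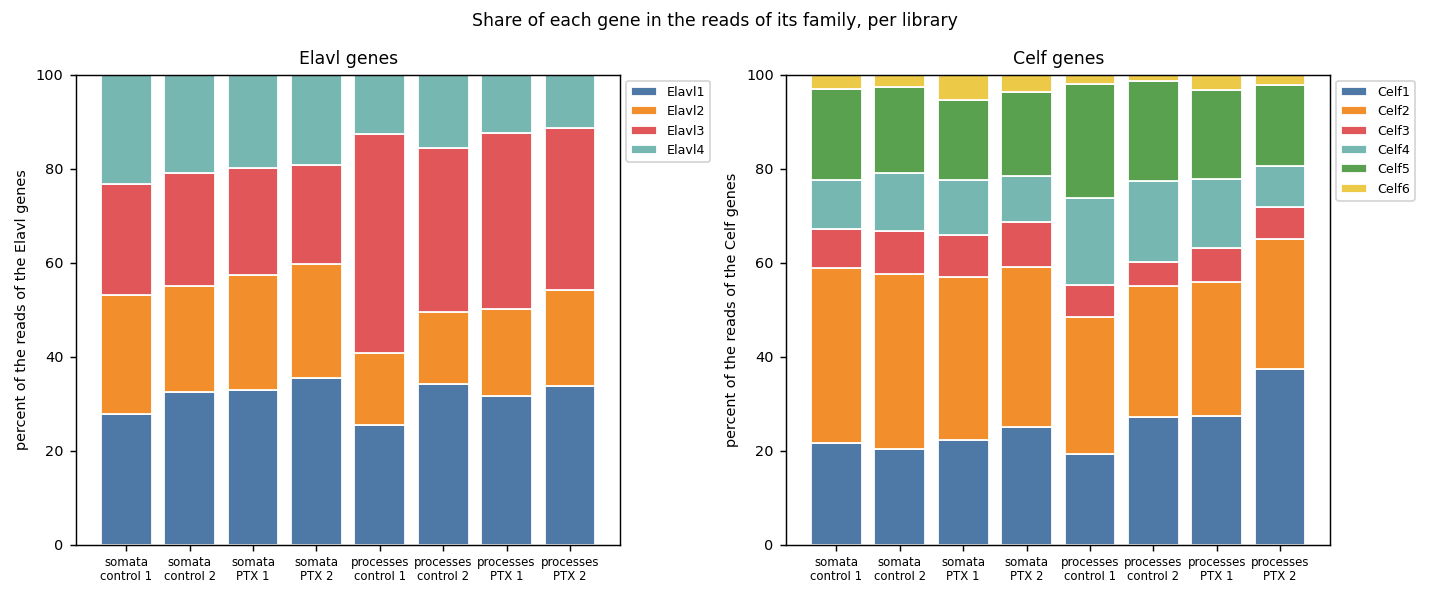
Percent of the reads of the 4 Elavl genes (left) and of the 6 Celf genes (right) that fell on each gene, with 1 bar per library. The band of Elavl3 covers 20.9% to 24.0% in the somata bars and 34.5% to 46.4% in the process bars.

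The second question is what 48 h of PTX did to these transcripts in each compartment. Celf2 fell in both compartments, and Celf4 and Celf5 fell in processes, while 0 of the 4 Elavl genes passed the test in either compartment. In processes 3 of 10 genes were lower and 0 higher at an adjusted p below 0.05, against 2.1% and 1.64% of all tested genes. In somata 1 of 10 was lower and 0 higher, against 1.5% and 2.09%. The log2 fold change was below 0 for 8 of the 10 genes in each compartment. The median log2 fold change of the 6 Celf genes was -0.41 in somata and -0.43 in processes, that of the 4 Elavl genes -0.13 and -0.18, and that of all tested genes -0.01 in both.

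Celf4 had the largest fall of the 10 genes in processes. It dropped from 59.5 and 46.3 CPM (534 and 394 reads) in the processes control libraries to 29.1 and 18.9 CPM (253 and 188 reads) in the processes PTX libraries. The groups did not overlap although the PTX libraries were far apart from each other. The level fell by 54.9% (log2 fold change -1.15, SE 0.203, adjusted p = 0.0135), and 1.73% of all tested genes had a lower log2 fold change. In somata, Celf4 was at 23.2 and 27.3 CPM in control libraries and at 19.3 and 16.3 CPM in PTX libraries, again without overlap. The log2 fold change there was -0.51 (SE 0.191, adjusted p = 0.217), and with the replicate block, which called 14% of all genes in somata, the adjusted p was 0.00754. From replicate 1 to replicate 1, its log2 level differed by -0.26 in somata and by -1.03 in processes, and from replicate 2 to replicate 2 by -0.75 and -1.29.

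Celf5 fell by 45.7% in processes, from 78.1 and 57.5 CPM to 36.9 and 36.8 CPM, without overlap (log2 fold change -0.88, SE 0.145, adjusted p = 0.00989). In somata it was at 43.1 and 40.0 CPM in control and at 28.2 and 30.1 CPM in PTX libraries. These groups were apart too, with a log2 fold change of -0.51 (SE 0.138), but the adjusted p was 0.0733. It passed with the replicate block (adjusted p = 0.0014) and with the likelihood ratio test that the study used (adjusted p = 0.0195).

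Celf2 fell to a like extent on both sides of the filter. It was at 83.1 and 81.2 CPM in control somata and at 57.6 and 57.0 CPM in PTX somata, a log2 fold change of -0.52 (SE 0.117, adjusted p = 0.0351). In processes it was at 93.9 and 75.3 CPM in control and at 56.1 and 59.8 CPM in PTX libraries, a log2 fold change of -0.54 (SE 0.123, adjusted p = 0.0372). In neither compartment did the groups overlap. The call was lost with scaling by library size alone in somata (adjusted p = 0.0875) and in processes (0.077), and in processes also when only the 4 process libraries were fitted (0.103). The difference between these PTX effects was -0.03 on the log2 scale (95% interval -0.40 to 0.35).

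The remaining Celf genes did not pass the test. Celf1 was at 48.2 and 44.5 CPM in control somata and at 36.8 and 42.0 CPM in PTX somata (log2 fold change -0.24, 95% interval -0.61 to 0.14), and in processes its log2 fold change was -0.01 (95% interval -0.40 to 0.37). Celf3, known as a splicing regulator of neurons, had a log2 fold change of -0.32 in somata (95% interval -0.70 to 0.06) and of -0.32 in processes (95% interval -0.76 to 0.11). Celf6 had the lowest read counts, 32 to 249 per library. Its log2 fold change was 0.26 in somata and 0.13 in processes, with an interval from -0.58 to 0.85 in the latter, so that neither a rise nor a fall of that size was detectable at this depth.

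Among the Elavl genes, Elavl4 came closest to the threshold. It was at 29.6 and 25.4 CPM in control somata and at 23.0 and 22.7 CPM in PTX somata (log2 fold change -0.27, adjusted p = 0.374). In processes it was at 19.2 and 22.1 CPM in control and at 17.1 and 14.1 CPM in PTX libraries, without overlap in either compartment (log2 fold change -0.41, 95% interval -0.74 to -0.07, adjusted p = 0.204). Elavl3 had log2 fold changes of -0.21 in somata (95% interval -0.55 to 0.14) and -0.34 in processes (95% interval -0.69 to 0.02). Elavl2 differed by -0.06 in somata (95% interval -0.31 to 0.19) and by 0.18 in processes (95% interval -0.10 to 0.47). Elavl1 differed by 0.10 in somata (95% interval -0.18 to 0.38) and by -0.02 in processes (95% interval -0.32 to 0.28).

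**Figure D4:**
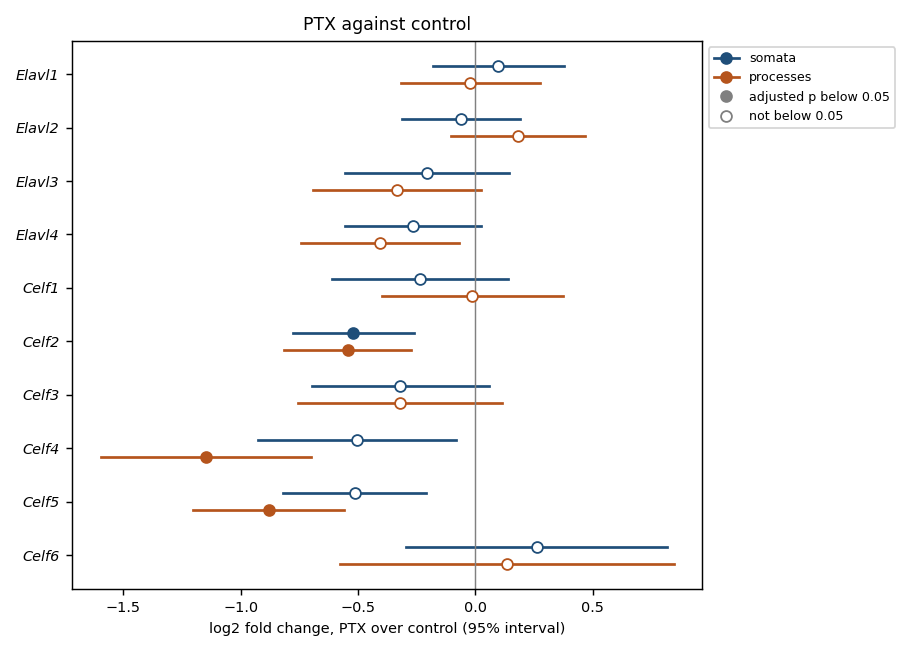
Log2 fold change of PTX over control (horizontal axis) with its 95% interval for the 10 genes, in somata (blue) and processes (orange). Filled points have an adjusted p below 0.05: Celf2 in both compartments, and Celf4 at -1.15 and Celf5 at -0.88 in processes, while the intervals of Elavl1, Elavl2 and Elavl3 span 0 in both.

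With 2 libraries a group, single libraries decided the PTX calls. Leaving out a library of the compared conditions leaves 1 in its group, and fewer of all tested genes then passed too. A lost call is therefore not particular to these genes. The call of Celf2 in somata was lost without any 1 of the 4 somata libraries (log2 fold change -0.55 to -0.51, adjusted p 0.166 to 0.199). Without processes control replicate 1 or 2, Celf5 passed in somata beside Celf2 (adjusted p = 0.0255 and 0.0256). Without processes control replicate 1, the calls of all 3 genes in processes were lost, with Celf4 at -0.96, Celf5 at -0.64 and Celf2 at -0.38. Without processes PTX replicate 2 these calls were lost again, with Celf4 at -0.87, Celf5 at -0.88 and Celf2 at -0.59. Without processes PTX replicate 1, Celf4 was called at -1.49 (adjusted p = 0.023), and Celf5 and Celf2 were not (0.0667 and 0.173). Leaving out any 1 of the 4 somata libraries left Celf4 and Celf5 called in processes and Celf2 not, with an adjusted p of 0.0544 to 0.0583. The direction was kept by all 3 genes in each of these fits.

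Marker levels moved with PTX in part. The summed neuron markers were 5118 to 5437 CPM in control processes and 4081 to 4793 CPM in PTX processes, and the summed astrocyte markers 12904 to 14433 CPM and 11015 to 12285 CPM. Map2 made up most of the neuron sum, at 4693 and 4524 CPM in control and 3935 and 3369 CPM in PTX processes. Gfap made up most of the astrocyte sum, at 11110 and 9382 CPM in control and 7698 and 8799 CPM in PTX processes. The sums therefore mainly follow these genes, and neither passed the test for PTX in processes (adjusted p = 0.24 and 0.458). In somata the ranges of the sums overlapped, with 1905 to 2108 and 1832 to 2070 CPM for neurons and 3693 to 4106 and 2894 to 3879 CPM for astrocytes. Of the 8 neuron markers, 2 rose and 1 fell in somata. Those that rose were Gad1 and Gad2, which encode the GABA-synthesising enzymes (log2 fold change 0.82 and 0.92), and the one that fell was Rbfox3 (NeuN), a neuronal splicing factor (-0.67, adjusted p = 0.0221). In processes Gad2 (0.92) and the vesicular glutamate transporter gene Slc17a7 (0.73) rose and 0 fell. Of the 6 astrocyte markers, 0 passed the test for PTX in either compartment. More markers passed with the replicate block. In processes 4 neuron markers were then lower, Rbfox3 (adjusted p = 0.0294), Map2 (0.0308), Tubb3 (0.00513) and Syp (0.0138), and 3 higher, with Gad1 (0.000638) added. In somata 3 were lower, with Tubb3 (0.0036) and Slc17a7 (0.0182) added, and 2 higher. Among astrocyte markers the block called Aqp4 lower in somata (0.000663) and Slc1a3 higher in processes (0.0171). The part of cell composition in the falls of Celf2, Celf4 and Celf5 was not tested.

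Whether PTX acted differently in the 2 compartments was tested as a difference of effects, processes minus somata. The difference was called for 0 of the 10 genes and for 0% of all genes, with the likelihood ratio test, DESeq2 and the replicate block also giving 0 of the 10. At an unadjusted p below 0.05 there was 1 of the 10 genes, against 4% of all. This was Celf4, with a difference of -0.64 on the log2 scale (95% interval -1.26 to -0.03) and an adjusted p of 1 in edgeR's quasi-likelihood test. For Celf5 the difference was -0.37 (95% interval -0.81 to 0.07). The fall of Celf4 and Celf5 in processes is therefore not shown to differ from their response in somata.

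The order of the 4 conditions differed from gene to gene, which describes 2 libraries per condition and was not tested. Celf5 had 4 levels without overlap, from processes control (67.8 CPM) over somata control (41.6 CPM) and processes PTX (36.8 CPM) to somata PTX (29.1 CPM). Elavl4 also had 4 separate levels, in the order somata control (27.5 CPM), somata PTX (22.9 CPM), processes control (20.6 CPM) and processes PTX (15.6 CPM). For Celf4, processes control (52.9 CPM) stood apart, and somata control (25.3 CPM) overlapped with processes PTX (24.0 CPM), which overlapped with somata PTX (17.8 CPM). For Celf2 both control conditions overlapped with each other, as did both PTX conditions, and the pairs were apart. For Celf3 and Celf6 all neighbours in the order overlapped. Orders across the compartments depend on the TMM scaling. With counts divided by those outside mitochondrial genes, Celf5 overlapped between control processes (138.0 and 104.2 CPM) and control somata (106.4 and 98.1 CPM). Its PTX processes (66.6 and 66.7 CPM) then lay below its PTX somata (69.8 and 74.6 CPM). Celf2 was then apart between control somata (205.0 and 199.2 CPM) and control processes (166.0 and 136.3 CPM). The 4 levels of Elavl4 kept their order and stayed apart.

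The 10 genes were also compared with all tested genes of at least 5 CPM on average (10198 genes) by the root mean square difference of their log2 levels over the 8 libraries, after centring each gene on its mean. This is a description with no test. The pattern nearest to that of Celf5 was Syn1, which encodes the synaptic vesicle protein synapsin 1 (0.0727), and the one nearest to Elavl3 was Pip5k1c, a phosphatidylinositol phosphate kinase of the presynapse (0.0451). For Elavl2 it was Cnot1, the scaffold of the deadenylase complex (0.0364), for Elavl1 the proteasome subunit gene Psma7 (0.0497) and for Elavl4 the exocyst gene Exoc6 (0.0498). Celf1 was nearest to Cdc26 (0.0711), Celf2 to Ppp1r13b (0.0714), Celf3 to Eefsec (0.0976), Celf4 to Gse1 (0.0971) and Celf6 to Gtpbp3 (0.0889). Among the 10 genes themselves, the closest pair was Celf2 and Celf3 (0.167), and Celf4 and Celf5 were each other's nearest member (0.247).

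Promoter sequences were searched for the cAMP response element (CRE), the site of the activity-regulated factor CREB, because PTX raises network activity. In the RefSeq table of assembly GRCr8, which gives 250 bases before to 50 bases after a start site, 8 of the 10 genes had an entry. Celf2 and Celf4 had none, so that of the 3 genes that fell with PTX only Celf5 was searched. The full element TGACGTCA was in 1.83% of 33469 promoters, and of the 8 genes only Celf6, which did not pass the PTX test, held it. The shorter element TGACG, searched on both strands and contained in the full one, was in 21.2% of promoters and in Celf5 and Celf6 among the 8. The windows are shown for Celf5 and for the gene with the full element, on the plus strand and with the match in capitals. The Celf5 matches begin 13 and 213 bases before the start site, the latter on the opposite strand, and the Celf6 match 205 bases before it.
Celf5 (chr7:8876560-8876589): gggcggggccgcTGACGgagcgaagcggcc
Celf5 (chr7:8876360-8876389): agcagggagaccCGTCAgtctttctgatgg
Celf6 (chr8:68870877-68870906): tgctagctgtcTGACGTCActaagctcggg
A match describes these letters and is not a measured binding site.

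Other factors that act on the same mRNA elements were examined as lists. Of 20 factors of AU-rich elements and mRNA decay, 18 were tested. In control cultures 4 of the 18 were higher in processes and 4 lower, a share near that of all genes (25.8% and 21.9%). The largest differences were those of Ybx1, a cold shock protein of mRNA granules (log2 fold change 2.01, adjusted p = 2.23e-06), Tia1, a stress granule protein (-1.13, adjusted p = 0.000144), and its relative Tial1 (-0.83, adjusted p = 0.000297). In PTX cultures 5 were higher and 2 lower, beside 25.7% and 24% of all genes. PTX changed 0 of the 18 in somata and raised 1 in processes, Zfp36l1, which promotes the decay of AU-rich mRNAs (log2 fold change 0.65, SE 0.127, adjusted p = 0.0206). With the replicate block Khsrp, another decay factor, was lower in processes as well (adjusted p = 0.0441). The list's median for PTX was -0.02 in somata and 0.02 in processes. Of the Mbnl genes, the splicing antagonists of Celf proteins, 2 of 3 were tested. Mbnl1 and Mbnl2 were both lower in processes, by log2 fold changes of -0.87 and -0.43 in control cultures (adjusted p = 0.000852 and 0.0336), where 21.9% of all genes were lower. Neither passed the test for PTX.

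Transcripts described as Elavl targets moved in both directions. Of 11, 1 was higher and 4 were lower in processes of control cultures, beside 25.8% and 21.9% of all genes. In PTX cultures 1 was higher and 5 were lower, beside 25.7% and 24% of all genes. In control cultures the largest differences were those of Bdnf, a neurotrophin (log2 fold change -1.75), Fos, an immediate early gene (-1.73), and Ache, acetylcholinesterase (-1.18). PTX raised 3 of the 11 in somata, Bdnf (log2 fold change 2.05, adjusted p = 0.000216), Fos (1.42, adjusted p = 0.000588) and Nrn1, which encodes neuritin (0.74, adjusted p = 0.0222). Of all genes, 2.09% were higher with PTX in somata and 1.64% in processes. In processes PTX raised Bdnf (1.89, adjusted p = 0.00219) and Fos (1.52, adjusted p = 0.00392). With the replicate block Nrn1 was higher there too (adjusted p = 0.00576), and Ache (0.00309) and Mapt, the tau gene (0.0295), were lower. The median of the 11 was -0.06 in somata and 0.04 in processes. Of 5 described Celf targets 4 were tested, and 3 of them were lower in processes in either treatment: Ptgs2, which encodes cyclooxygenase 2 (log2 fold change -1.58 in control cultures), the sodium channel gene Scn8a (-0.68) and the transcription factor gene Jun (-0.45). Beside these, 21.9% of all genes were lower in processes of control cultures and 24% in PTX cultures. PTX raised Ptgs2 in somata (1.08, adjusted p = 0.0111) and lowered Scn8a in processes (-0.59, adjusted p = 0.0309). With the replicate block, Ptgs2 was higher in processes (adjusted p = 0.0146) and Scn8a lower in somata (0.000561) as well, and Mapt, which is on both target lists, passed as higher in processes than in somata of control cultures (0.000809). Binding by Elavl or Celf proteins was not measured in these libraries.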

How the data were processed

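Ribosome-depleted total RNA was sequenced from a directional library kit. The authors trimmed and aligned the reads and counted them per gene with featureCounts, and summed counts by gene symbol; the methods name Subread and the submitters' processing notes STAR as aligner, with build Rnor 6.0. The deposited values are whole-number counts without normalization. Tables of the authors' own PTX comparisons, which hold their fold changes and p-values, were not used. The 10 genes and all lists were chosen with earlier results of these data known.

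A gene was kept where 2 or more libraries had over 20 reads of it (14309 of 28909), and libraries were scaled by TMM in edgeR 4.0.16 (R 4.3.3). A quasi-likelihood model with 1 coefficient per condition was fitted to all 8 libraries, where the study used the likelihood ratio test. P-values were adjusted over all tested genes within each of 5 contrasts and called below 0.05. Standard errors are the log2 fold change over the square root of F. Log2 levels used a prior count of 2. Replicate numbers from the labels were taken to pair libraries, since deviations of same-numbered libraries correlated (r = 0.27 to 0.54 over 6 pairs of conditions). The labels do not say what a number marks, and the pairing was read from the same counts that were tested. Results with the block are therefore an alternative and no independent check. The block lowered the coefficient of variation from 11.5% to 6.77%. The alternatives tried were DESeq2 1.42.0, the likelihood ratio test, other scalings and filters, the replicate block, fewer libraries and a log2 fold change above 1. The test was checked on simulated counts. All 10 genes were named, with, from each list, at most the 3 called genes of largest change per contrast, and 1 gene of nearest pattern each. The marker genes named were chosen after their values were seen.

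The strand setting of the counting is not given in the sources used here. In GRCr8, Elavl1, Celf2, Celf3 and Celf4 overlap other annotated genes and Elavl1 has a pseudogene, so that part of their reads is of uncertain origin. Promoters were matched by symbol. Proteomics, exon usage and 3′ untranslated regions were not analysed here. Some single genes of the lists are not reported here.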

Additional observations from a re-analysis of the deposited data

How the results depend on the processing

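Over 890 refits of single genes, 786 kept direction and side of the threshold, 40 changed sign without a call in either fit, 30 lost a call, 22 gained one and 12 reversed. All reversals came from scaling by library size alone, the construction that moves the median of all genes to -1.86 in control and -1.87 in PTX cultures: processes against somata was then -1.59 for Elavl1, -0.81 for Elavl3, -1.25 for Celf1, -1.78 for Celf2, -0.76 for Celf4 and -1.11 for Celf5 in control cultures, and -1.74, -0.94, -1.05, -1.81, -1.41 and -1.49 in PTX cultures, with 10 of 10 genes called lower in each. That scaling called 94.1% of all genes in control and 94.3% in PTX cultures. The same scaling left 0 of the 10 genes called for PTX in somata, beside 3.43% of all genes. With upper quartile scaling the median of all genes was -0.25 and -0.23. Requiring a log2 fold change above 1 left 2 genes in control and 0 in PTX cultures for the compartments. With the replicate block, 5 of the 10 genes differed between compartments in PTX cultures (59.5% of all genes) and 3 changed with PTX in somata (14% of all genes). The block changed no other call of the 10 genes. PTX in somata gave 2 of the 10 with the likelihood ratio test (6.79% of all genes), 3 without a filter (5.04%) and 2 with only the 4 libraries compared (4.2%), where the reported count was 1. The cause was not tested. Leaving out 1 library gave 3 to 6 genes for the compartments in control cultures, 3 to 4 in PTX cultures, 0 to 2 for PTX in somata, 0 to 3 for PTX in processes and 0 for the difference of the PTX effects. Those fits leave 1 library in a condition. Where that condition was compared, fewer of all genes passed as well, for the compartments and for PTX. In processes, 2 libraries per condition with 32 to 842 reads per gene limit the precision.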
